A study of Mus musculus with 12 samples.

Results

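The genes examined here encode subunits of the oxidative phosphorylation machinery of mitochondria. They were chosen by name: every non-control probe whose gene name in the array files starts with Nduf, Uqcr, Cox4 to Cox8 or Atp5. That rule took 120 of 55681 probes, and these stood for 86 genes. A gene was tested if its signal stood well above background on every array of some group, and 83 of the 86 did. The tested genes comprised 38 counted under complex I by name, 5 assembly factors of complex I, 8 of complex III, 15 of complex IV, 15 of ATP synthase and 2 others. The untested genes were Cox7b2, Cox8b and Cox8c, subunit isoforms of complex IV known from testis or muscle. Current gene names moved some members: the file name Atp5sl is now Dmac2, an assembly factor of complex I, Atp5s is Dmac2l, a coupling factor of ATP synthase, and Cox4nb is Emc8, a subunit of a membrane protein insertion complex of the endoplasmic reticulum that is not part of oxidative phosphorylation.

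RNA came from RAW264.7 cells, a mouse macrophage line, in 4 groups of 3 arrays. The groups were cells given an siRNA against lincRNA-Tnfaip3 and then E. coli LPS, cells given a scrambled control siRNA and then LPS, cells given the lincRNA-Tnfaip3 siRNA without LPS, and cells given the control siRNA without LPS. In all groups the siRNA was applied for 24 h and a further 4 h of culture followed, with LPS at 1 µg/ml or without it. The labels do not say that replicates were separate cultures, so the p-values cover the spread of these arrays only, which may be technical, and 1 siRNA stands for the loss of the lincRNA, whose own level was not measured here.

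Oxidative phosphorylation passes electrons from NADH through complex I, ubiquinone, complex III, cytochrome c and complex IV to oxygen. The protons pumped on the way drive ATP synthase. Most subunits are encoded in the nucleus and are probed here, while the catalytic cores of several complexes are encoded in mitochondrial DNA. Macrophages stimulated with LPS are known to turn from respiration towards glycolysis, in part because itaconate, made by the enzyme Acod1, inhibits complex II.

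Promoters of respiratory genes are known for sites of NRF1, of GABPA, an ETS factor, and of YY1. RefSeq promoter windows (GRCm38.p6, 250 bases before to 50 after the start) were found for 71 of the 86 genes. The 3 short motifs were searched on both strands, and a match is a description of the sequence only. A gene counted if any of its windows held a match. The core of NRF1 sites (GCGCA, any base, then GCGC) occurred for 16 of the 71 genes (22.5%) and for 5.19% of all 27025 genes. CCGGAAG, an ETS core, occurred in 15 (21.1%) against 9.93% of all, and AAGATGGC, a YY1 core, in 11 (15.5%) against 3.19%. At least 1 of the motifs was found for 37 of the 71 (52.1%) and for 16.4% of all genes. The 250 bases before the start are printed for a member of ATP synthase, of complex IV and of complex I with several matches. Over all arrays and with the probe used, Atp5h had the largest log2 difference between siRNAs without LPS, at 0.55 (limma adjusted p = 0.240). The difference was 0.026 with the slide of each array as a block, and 0.088 for the other Atp5h probe. A link between the motifs and this difference was not tested. Capitals mark the NRF1 and ETS motifs on either strand.
Atp5h, chr11:115419920-115420169, minus strand: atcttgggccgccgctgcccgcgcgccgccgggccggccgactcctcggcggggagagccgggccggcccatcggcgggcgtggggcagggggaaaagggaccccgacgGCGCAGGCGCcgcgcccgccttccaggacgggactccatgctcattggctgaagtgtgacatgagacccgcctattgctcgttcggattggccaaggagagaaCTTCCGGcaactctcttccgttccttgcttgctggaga
Cox6a1, chr5:115348959-115349208, minus strand: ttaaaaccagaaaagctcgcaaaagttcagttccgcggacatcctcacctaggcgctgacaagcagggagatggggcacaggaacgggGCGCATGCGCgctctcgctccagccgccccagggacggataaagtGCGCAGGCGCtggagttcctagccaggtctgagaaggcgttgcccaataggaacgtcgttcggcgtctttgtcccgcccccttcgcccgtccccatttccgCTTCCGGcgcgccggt
Ndufb4, chr16:37654369-37654618, minus strand: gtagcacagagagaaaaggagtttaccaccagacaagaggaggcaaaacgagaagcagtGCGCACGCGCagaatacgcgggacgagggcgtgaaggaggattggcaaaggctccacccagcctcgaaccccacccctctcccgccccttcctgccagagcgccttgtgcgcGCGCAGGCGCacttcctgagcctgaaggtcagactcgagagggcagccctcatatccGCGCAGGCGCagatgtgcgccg

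The arrays lay on 3 slides that did not hold all groups. Arrays 1 and 2 of the control siRNA were on slide 1, arrays 2 and 3 of the LPS-treated lincRNA-siRNA cells on slide 3, and the remaining 8 on slide 2. On slide 1, 27198 and 29452 probes were well above background, against 32702 to 36391 elsewhere. Blocking on slide takes the changes from slide 2 alone, where control siRNA without LPS and lincRNA siRNA with LPS are left with 1 array each. The spread used in its tests still draws on slides 1 and 3, with 6 residual degrees of freedom against 4 on slide 2. Of 10 macrophage genes, 9 were well above background on all 12 arrays and Mrc1 on 0, while among genes of other cell types 0 of 4 fibroblast, 0 of 4 epithelial, 2 of 5 T cell, 2 of 4 B cell, 2 of 3 endothelial, 2 of 3 neutrophil and 1 of 3 erythroid genes were. Short of all 12 arrays, the fibroblast genes Col1a2, Col3a1, Col1a1 and Pdgfra were so on 11, 4, 3 and 0. The epithelial genes Krt8, Krt18, Epcam and Cdh1 were so on 1, 1, 0 and 0 arrays, endothelial Cdh5 on 11 and T cell Cd8a on 10. The part of these genes in the results was not tested. All 8 LPS marker genes rose with LPS under both siRNAs, and 6 passed with slide blocked, Mx1 and Nos2 missing the threshold at adjusted p of 0.0753 and 0.0941 with the control siRNA and 0.263 for both with the lincRNA siRNA. Il6 rose by 6.85 ± 0.34 (log2, SE) in control-siRNA cells.

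Levels are given as log2 of the processed signal minus the 75th percentile of the array, so a level of 0 equals that percentile. One cell line was measured in bulk on arrays scaled this way, so fewer cells of a state and less RNA per cell cannot be told apart. Of the 83 tested genes, 82 were well above background on all 12 arrays. Their probes lay mostly far up the scale of each array, with means over the 12 arrays of 8.98 for Cox6a1 of complex IV, 8.49 for Atp5b, the catalytic beta subunit of ATP synthase, 7.90 for Uqcrh, the hinge protein of complex III, and 7.65 for Ndufb8, a membrane-arm subunit of complex I. The dimmest tested probe had a mean of 5.22 in ATP synthase (Atp5o), 4.88 in complex III (Uqcrc1) and -0.53 in complex IV (Cox6b2). Among the genes counted under complex I it was -3.62 for Ndufa4l2, which is placed there by its name. Uqcrc1, a core protein of complex III, was at 4.92, 4.86 and 5.09 with the lincRNA siRNA and LPS, 4.92, 4.83 and 4.72 with the control siRNA and LPS, 5.00, 4.79 and 4.83 with the lincRNA siRNA, and 4.79, 4.80 and 5.04 with the control siRNA, and all 4 groups overlapped. These are brightness values of single probes, which differ in how they bind, so their order is not an order of RNA amounts. The median SD within a group was 0.12 for the members and 0.23 for all 23913 features tested.

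**Figure D1:**
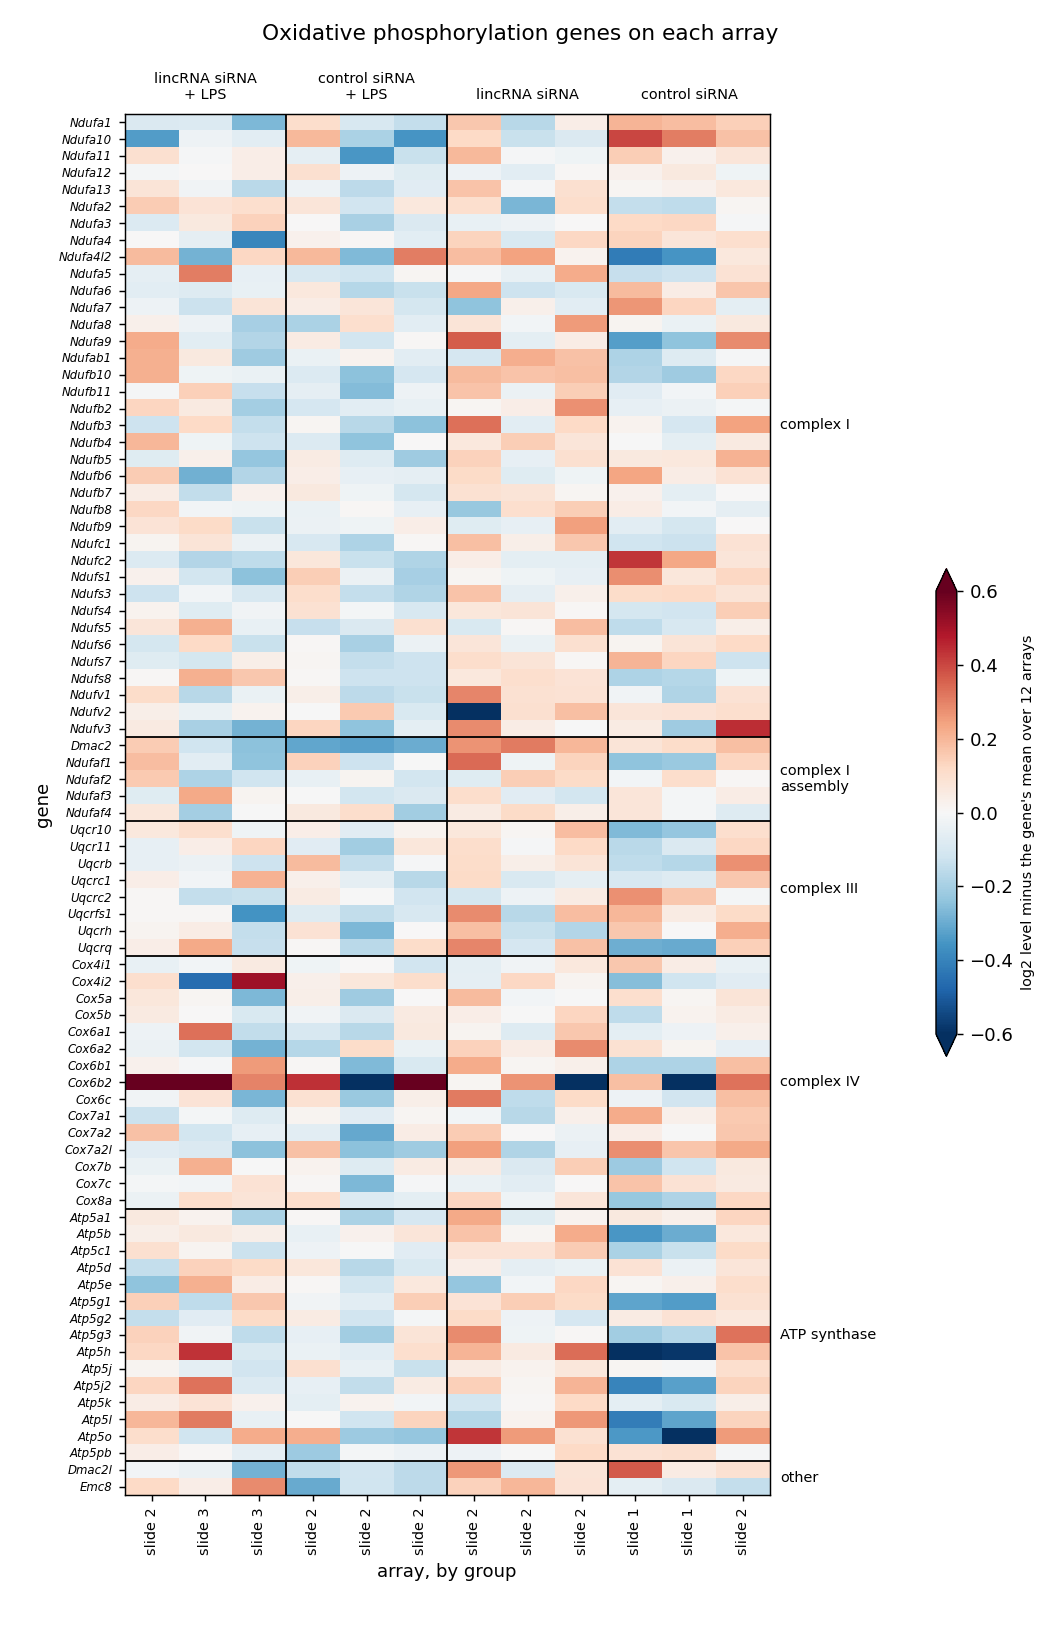
Log2 level of 82 of the tested genes (rows, by complex) on each of the 12 arrays (columns, by group, with the slide named), as the deviation from the gene's mean over the 12 arrays. Colours run from -0.6 to 0.6. Most cells are pale, Cox6b2 runs past the scale, and a block of ATP synthase genes is low on the 2 slide-1 arrays of control siRNA.

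With LPS and the control siRNA, the changes of the members ran from -0.43 to 0.35 on the log2 scale. None of the 83 passed the test (limma with Benjamini-Hochberg adjustment over all features, threshold 0.05), while 5.14% of all features did. At an unadjusted p under 0.05 there were 5 members, all lower (6.02% of the 83). Of all features, 24.2% did so in either direction and 10.6% were lower. The 95% interval of the change lay within 1.5-fold of no change for 73 of the 83 and within 2-fold for 82. The median change was -0.061, against 0.058 over all features, and 58 of 83 members (69.9%) had a change below 0, against 44.1% of all features. A median below 0 was not particular to the members. The lists of other mitochondrial genes counted further below had medians from -0.20 (TCA cycle) to -0.083 (further assembly factors), and glycolysis had 0.058. Complex I, which makes up 38 of the 83, held 30 of these 58 and had a median of -0.11. With the slide as a block, 33 of 38 complex I genes were below 0. So were 15 of 15 ATP synthase, 8 of 8 complex III and 13 of 15 complex IV genes.

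The groups did not overlap for 15 members that were lower with LPS (18.1%, against 15.3% of all features) and for 1 that was higher (1.2%, against 14.9%). The lower ones were 8 complex I genes, Dmac2, Dmac2l, Cox7a1, Cox7c, Atp5a1, Atp5pb and Uqcrfs1. The higher one was Cox4i2, the hypoxia- and lung-related isoform of subunit 4 of complex IV. Blocking on slide gave 0 members called and 0.962% of all features. Its median was -0.14 against -0.045 for all features, and 75 of 83 members (90.4%) were below 0 against 56.7% of all features. The lists of other mitochondrial genes had block medians from -0.22 (TCA cycle) to -0.091 (mitochondrial ribosome), and glycolysis had -0.11. On slide 2 that contrast rests on 1 control-siRNA array without LPS, whose member median was 6.30. The slide-1 arrays had medians of 6.25 and 6.21, and the 3 arrays with LPS had 6.15, 6.09 and 6.15.

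Dmac2 came nearest to the threshold. Its probe lies on mm9 at chr7:26410510-26410569. It was at 3.23, 2.96 and 2.83 with the lincRNA siRNA and LPS, at 2.77, 2.75 and 2.78 with the control siRNA and LPS, at 3.35, 3.39 and 3.28 with the lincRNA siRNA alone, and at 3.16, 3.19 and 3.26 with the control siRNA alone. The 3 control-siRNA arrays with LPS were lower than all 9 others, and within each siRNA the LPS arrays lay below the unstimulated ones. The LPS change with the control siRNA was -0.43 ± 0.11 (SE, limma adjusted p = 0.0504) and -0.49 when slide was blocked, where adjusted p was 0.145. It passed under 6 of the alternative settings and when lincRNA-siRNA LPS array 1 or 3 was left out, with adjusted p from 0.0221 to 0.0488. Those 2 arrays are not part of this contrast, and the change stayed at -0.43 without them. It also stayed at -0.43 with the stricter background filter, the probe mean and the intensity trend. With each of the 12 arrays left out in turn, Dmac2 passed in 2 fits, and limma adjusted p ran up to 0.154. Of the 6, quantile normalization and the authors' value table gave nearly the same result, at limma adjusted p of 0.0426 and 0.0428.

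Ndufa10, an accessory subunit of complex I, had the next lowest change. Its level was 4.04, 3.66 and 3.50 with the control siRNA and LPS, against 4.25, 4.16 and 4.03 with the control siRNA alone. The groups overlapped in 1 array, and the change was -0.41 ± 0.15 (limma adjusted p = 0.152). Ndufc2, a membrane-arm subunit of complex I, had 6.15, 5.95 and 5.90 with LPS, against 6.51, 6.32 and 6.16 without it. Its groups lay just apart, the slide-1 arrays were the highest, and its change of -0.33 ± 0.11 (adjusted p = 0.129) was -0.15 with the slide as a block.

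At the other end stood Atp5h, subunit d of the ATP synthase stator, at 0.35 ± 0.22, Ndufa4l2 at 0.31 ± 0.19 and Atp5b at 0.21 ± 0.12, with limma adjusted p of 0.332, 0.337 and 0.289. None kept that size within slide 2, where the changes were -0.17, 0.016 and -0.043. Leaving out control-siRNA array 3, which leaves only slide-1 arrays in the unstimulated group, brought 3 members past the threshold: Atp5h at 0.61, Atp5b at 0.34 and Ndufc2 at -0.41.

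**Figure D2:**
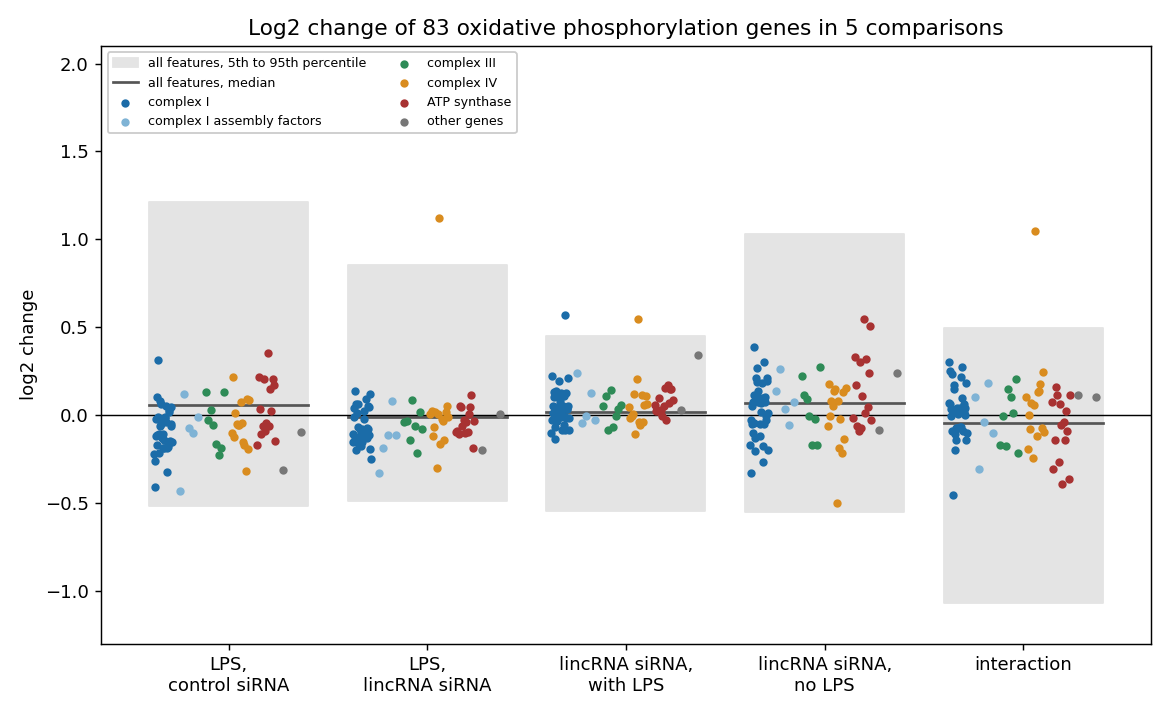
Log2 change of each of the 83 genes in the 5 comparisons, coloured by complex, over the 5th to 95th percentile (grey) and the median (line) of all 23913 features. The members sit in a narrow band around 0, with Cox6b2 at 1.12 after LPS with the lincRNA siRNA as the widest exception.

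With LPS and the lincRNA siRNA, the changes of the members ran from -0.33 to 1.12. None of the 83 members passed, against 1.84% of all features, and 2 had an unadjusted p under 0.05, both lower, against 10.2% of all features in either direction and 5.06% lower. Groups were apart for 5 members lower (6.02%, against 7.51% of all features) and for 1 higher (1.2%, against 8%). The 95% interval stayed within 1.5-fold for 80 of 83. The median was -0.077 (all features -0.0092), and 57 of 83 members (68.7%) were below 0 (all features 51.7%). Blocking on slide gave 0 members called, against 0.661% of all features, a median of -0.030, and 49 members below 0.

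The lowest changes were -0.33 ± 0.11 for Dmac2 (limma adjusted p = 0.264; -0.11 with the slide as a block), -0.30 ± 0.11 for Cox6a2, the muscle isoform of a complex IV subunit (adjusted p = 0.366; -0.19 with the block), and -0.25 ± 0.18 for Ndufv3, a small flavoprotein subunit of complex I (adjusted p = 0.752; -0.055 with the block). Cox6a2 was at 0.52, 0.45 and 0.28 with LPS, against 0.70, 0.60 and 0.84 without, and its groups did not overlap. The highest changes were 0.12 ± 0.18 for Ndufv2, an iron-sulphur subunit of complex I, 0.13 ± 0.12 for Ndufa2 and 1.12 ± 0.61 for Cox6b2 (adjusted p = 0.616). The change of Ndufv2 rested on lincRNA-siRNA array 1, at 4.92, and was -0.13 without it.

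Cox6b2, the testis isoform of complex IV subunit 6b, was the most variable member. It was at 0.13, 0.24 and -0.23 with the lincRNA siRNA and LPS, at -0.087, -1.61 and 0.19 with the control siRNA and LPS, at -0.52, -0.26 and -2.46 with the lincRNA siRNA, and at -0.34, -1.18 and -0.20 with the control siRNA. In 3 of the 4 groups 1 array lay far below the other two. Without lincRNA-siRNA array 3 its LPS change with that siRNA was 0.43 and not 1.12, and its siRNA difference without LPS was 0.19 and not -0.50. Without control-siRNA LPS array 2 its siRNA difference with LPS was -0.0044 and not 0.55.

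The siRNA comparison in LPS-treated cells gave no call, in members or in any feature (limma, 0% called). At an unadjusted p under 0.05 there were 3 of 83 members, all higher, against 4.63% of all features in either direction and 2.66% higher. Blocking on slide called 0 members and 0.00836% of all features. The median was 0.037 (all features 0.019), and 54 of 83 members (65.1%) were above 0 against 53.7% of all features. With the block the median was 0.078 (all features 0.039), and 68 of 83 (81.9%) were above 0 against 56.6%. With quantile normalization the median was -0.038 (all features -0.0065). The 95% interval stayed within 1.5-fold for 79 of 83. Groups were apart for 8 members, all higher with the lincRNA siRNA (9.64%, against 7.16% of all features), and for 0 members lower (against 4.29%).

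The probe of Emc8 lies on mm9 at chr8:123181906-123181965 on the minus strand. The level was 2.75, 2.67 and 2.92 with the lincRNA siRNA and LPS, 2.33, 2.51 and 2.47 with the control siRNA and LPS, 2.77, 2.83 and 2.71 with the lincRNA siRNA, and 2.57, 2.54 and 2.49 with the control siRNA. All 6 lincRNA-siRNA arrays lay above all 6 control-siRNA arrays. The difference with LPS was 0.34 ± 0.096 (95% interval 0.12 to 0.56, limma adjusted p = 0.93), and 0.31 when slide was blocked. Without LPS it was 0.24 ± 0.096 (adjusted p = 0.248) and 0.28 when slide was blocked. Cox6b2 was at 0.55 ± 0.61 with LPS. The lowest were Ndufa4, now known as a complex IV subunit but counted under complex I by its name, at -0.14 ± 0.12, Cox6a2 at -0.11 ± 0.11 and Ndufa1, a small membrane-arm subunit of complex I, at -0.10 ± 0.11. With the block these 3 were at 0.013, -0.00084 and -0.041.

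**Figure D3:**
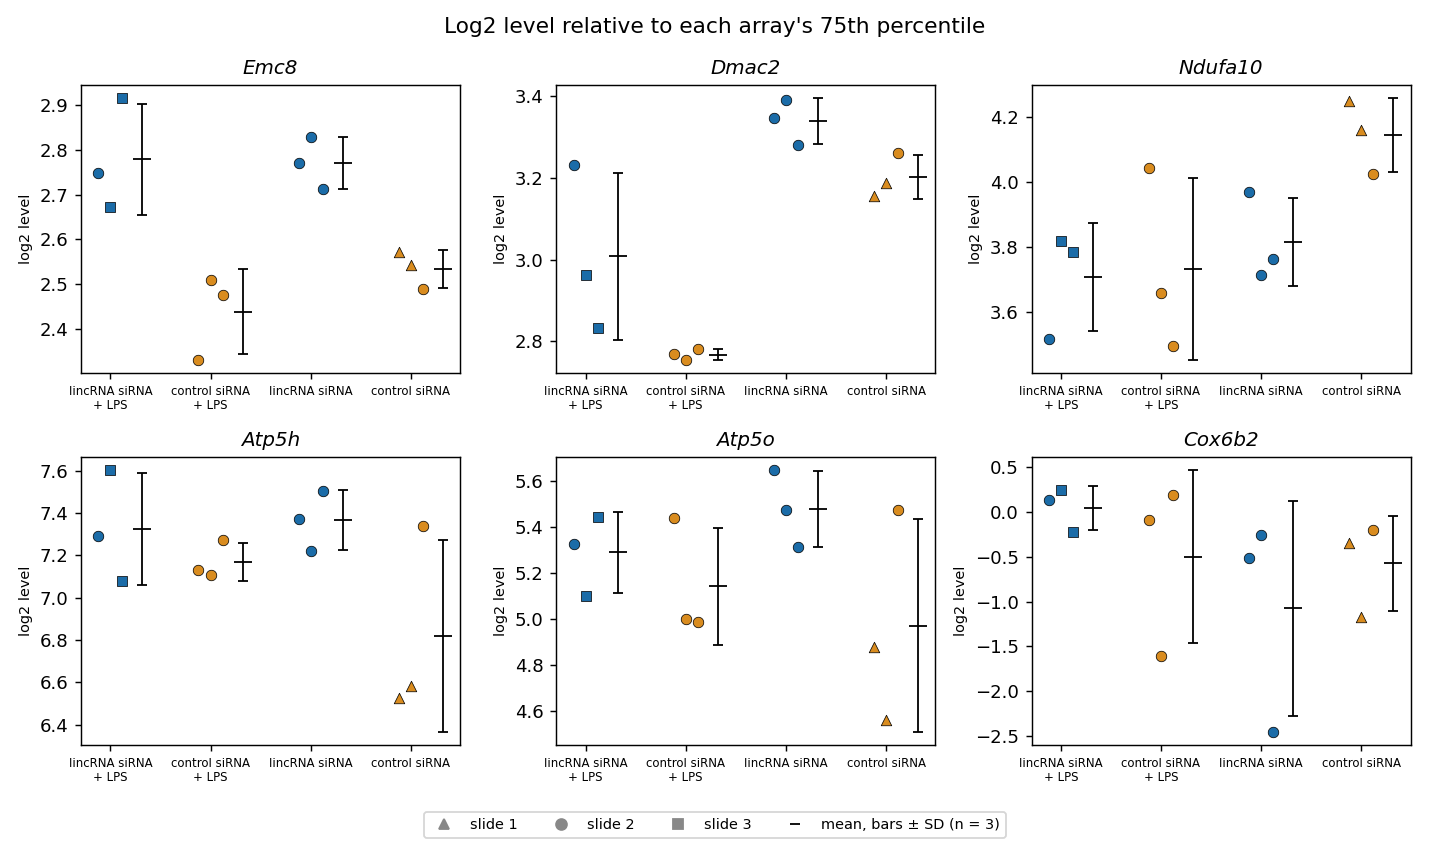
Log2 level relative to the array's 75th percentile for 6 genes, with every array as a point, its slide as the marker shape, and the group mean ± SD (n = 3) beside it. Emc8 is higher on all 6 lincRNA-siRNA arrays, Dmac2 is lowest on the control-siRNA LPS arrays, and Atp5h and Atp5o are low on the 2 slide-1 arrays.

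Without LPS the siRNA comparison also gave no call (limma, 0% of all features). At an unadjusted p under 0.05 there were 7 members, 6 higher and 1 lower, against 12.7% of all features higher, 5.88% lower and 18.5% in all. Blocking on slide called 0 members and 0.00418% of all features. The median was 0.071 (all features 0.068), and both medians were -0.021 with the slide as a block. With quantile normalization the member median was -0.054 (all features 0.014). Members above 0 were 49 of 83 (59.0%, against 58.3% of all features) and with the block 30 (36.1%, against 46.3%). The 12 housekeeping genes had a median of 0.32 here, and of 0.037 with the block, and their part in the result was not tested. The 95% interval stayed within 1.5-fold for 68 of 83 and within 2-fold for 80. Groups were apart for 9 members higher (10.8%, against 12.2% of all features) and 4 lower (4.82%, against 9.22%).

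The highest differences belonged to 2 stator subunits of ATP synthase and to Ndufa4l2. Atp5h was at 7.37, 7.22 and 7.50 with the lincRNA siRNA, against 6.53, 6.58 and 7.34 with the control siRNA, a difference of 0.55 ± 0.22 (limma adjusted p = 0.240). Atp5o, the oligomycin sensitivity conferring protein, was at 5.65, 5.48 and 5.32 with the lincRNA siRNA, against 4.88, 4.56 and 5.48 with the control siRNA, a difference of 0.51 ± 0.23 (adjusted p = 0.269). In both, control-siRNA array 3 lay among the lincRNA-siRNA arrays and the 2 slide-1 arrays lay below. With the slide as a block the differences were 0.026 and 0.0054. Ndufa4l2 differed by 0.39 ± 0.19 over all arrays and by 0.087 with the block. Without control-siRNA array 3, leaving only slide 1 in that group, Atp5h, Atp5o and Atp5b passed at 0.81, 0.76 and 0.46. The lowest differences were -0.50 ± 0.61 for Cox6b2, -0.33 ± 0.15 for Ndufa10 and -0.27 ± 0.11 for Ndufc2. With the block they were -0.87, -0.21 and -0.098.

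The siRNA comparisons with and without LPS share no array, so their members can be set side by side. In each comparison, however, 1 group has 2 of its 3 arrays on a slide that holds no other group. In both, 5 of 83 members (6.02%) were higher with the lincRNA siRNA with groups apart, against 2.4% of all features, and 0 members were lower in both, against 1.18%. Among them were Ndufs8 and Ndufb10 of complex I, Dmac2 and Emc8. Ndufs8, a core iron-sulphur subunit, and Ndufb10, a membrane-arm subunit, were singled out after their values were seen. Ndufs8 was at 4.69, 4.89 and 4.85 with the lincRNA siRNA and LPS, against 4.69, 4.56 and 4.56 with the control siRNA and LPS, and at 4.75, 4.78 and 4.76 with the lincRNA siRNA, against 4.50, 4.51 and 4.66 with the control siRNA. With LPS its groups were barely apart, the lowest lincRNA-siRNA array at 4.690 and the highest control-siRNA array at 4.689. Its differences were 0.21 ± 0.093 with LPS and 0.21 ± 0.093 without. In each comparison the group spread over several slides came nearest to the other with its slide-2 array, and the slide block gave 0.089 and 0.11. Ndufb10 was at 6.44, 6.20 and 6.19 with the lincRNA siRNA and LPS, against 6.14, 5.98 and 6.13 with the control siRNA and LPS, and at 6.42, 6.39 and 6.41 with the lincRNA siRNA, against 6.05, 6.01 and 6.35 with the control siRNA. Blocking on slide moved the differences of Ndufb10 to 0.36 with LPS and 0.054 without, against 0.19 and 0.27 over all arrays. Those of Dmac2 were 0.47 and 0.078 with the block, against 0.24 and 0.14. In limma, adjusted p-values of these 4 genes were 0.93 to 0.976 with LPS and 0.248 to 0.496 without.

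For the interaction, the LPS change with the lincRNA siRNA minus that with the control siRNA, 0 of 83 members and 0% of all features passed, and 0 members had an unadjusted p under 0.05, against 3.74% of all features. The median was 0.022 (all features -0.044), and with the block 0.098 (all features 0.060), where 68 of 83 members were above 0 (81.9%, against 59.2% of all features). The precision was lower here: the 95% interval stayed within 1.5-fold for 61 of 83 and within 2-fold for 79. The lowest values were -0.45 ± 0.27 for Ndufa4l2, -0.39 ± 0.30 for Atp5h and -0.36 ± 0.32 for Atp5o. The highest were 1.05 ± 0.87 for Cox6b2 and 0.30 ± 0.22 for Ndufa10, with a limma adjusted p of 0.891 for each of the 5. Of these 5, Cox6b2 alone kept its sign and over 0.2 in size with the slide as a block, at 1.51.

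With the probe used for each gene, the control-siRNA arrays split by slide most clearly in ATP synthase. The 2 slide-1 arrays were both lower than array 3 in 12 of 15 ATP synthase genes and in 6 of 8 complex III genes, against 52.6% of all features. The median of the slide-1 mean minus array 3 was -0.28 in ATP synthase, -0.25 in complex III, -0.059 in complex I and -0.12 over all features. Slide and replicate cannot be told apart in this group. Further probes of a gene differed in the split. A further probe of Atp5l was at 7.39 and 7.40 on slide 1, against 7.31 on array 3. Another Atp5l probe was at 4.93 and 4.99, against 5.23. In the LPS contrast with the control siRNA, 8 of 15 ATP synthase genes were above 0 over all arrays and 0 of 15 within slide 2.

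**Figure D4:**
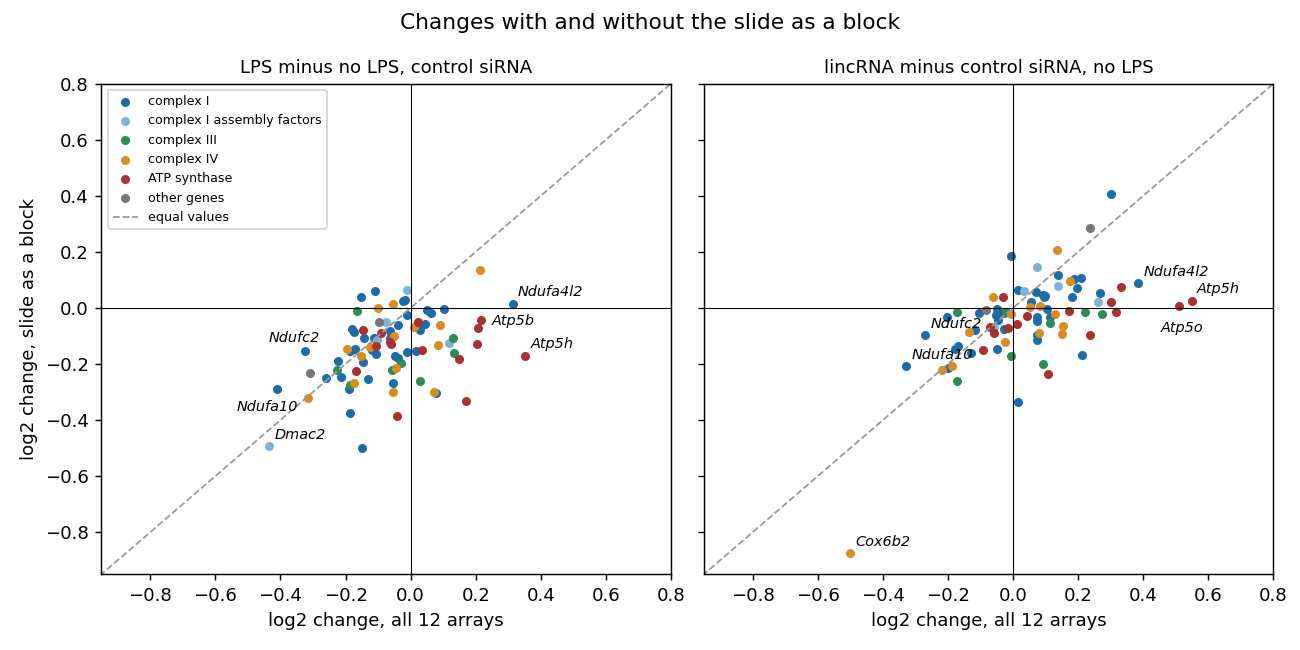
Log2 change with the slide as a block (vertical) against the change over all 12 arrays (horizontal) for the 83 genes, for LPS with the control siRNA and for the lincRNA siRNA without LPS. The dashed line marks equal values. On the left Atp5h is at 0.35 over all arrays and at -0.17 with the block, and on the right Atp5h and Atp5o lie near 0 with the block.

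Several probes of a gene did not always move alike. Of 24 members with several kept probes, 6 to 13 had probes of opposite sign in a comparison, and 0 probes passed in any. The Atp5h probe used above lies on mm9 at chr11:115277011-115277070, and its other probe just beside it at chr11:115277088-115277147. The other probe was at 7.24, 7.28 and 7.16 with the lincRNA siRNA, against 7.14, 7.08 and 7.20 with the control siRNA. Its slide-1 arrays did not stand apart, and its difference was 0.088 ± 0.10, against 0.55 for the probe used. Cox7c, a small complex IV subunit, had the widest gap, with differences of -0.14, 0.43 and 0.47 between siRNAs without LPS for its 3 probes. Cox7c and 9 other members have pseudogenes named in the reference, and a share of signal from such copies was not tested.

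The isoforms known from other tissues or from hypoxia are given with their levels. Ndufa4l2, a hypoxia-induced relative of Ndufa4, was well above background on 11 of 12 arrays, with a mean of -3.62. It was at -3.44, -3.91 and -3.50 with the lincRNA siRNA and LPS, -3.43, -3.89 and -3.32 with the control siRNA and LPS, -3.44, -3.38 and -3.60 with the lincRNA siRNA, and -4.04, -3.98 and -3.56 with the control siRNA. All 4 groups overlapped. Cox4i2 was at -0.12, -0.68 and 0.29 with the lincRNA siRNA and LPS, -0.19, -0.15 and -0.11 with the control siRNA and LPS, -0.27, -0.095 and -0.20 with the lincRNA siRNA, and -0.47, -0.33 and -0.28 with the control siRNA, so its control-siRNA groups lay just apart. Cox7a1, the muscle isoform of subunit 7a, averaged 2.13 ± 0.061, 2.19 ± 0.046, 2.15 ± 0.10 and 2.34 ± 0.099 (SD, n = 3) in the same order of groups. Cox7b2 and Cox8c were well above background on 0 arrays and Cox8b on 2.

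Atp5g1, Atp5g2 and Atp5g3 encode the same mature c-ring protein of ATP synthase. Atp5g1 was at 7.87, 7.57 and 7.89 with the lincRNA siRNA and LPS, 7.70, 7.66 and 7.87 with the control siRNA and LPS, 7.80, 7.87 and 7.84 with the lincRNA siRNA, and 7.41, 7.39 and 7.81 with the control siRNA. Its slide-1 arrays were the lowest of the 12. Atp5g3 had the same slide-1 pattern within the control siRNA, at 7.24 and 7.28, against 7.78 on array 3. Atp5g2 averaged 8.19 ± 0.13 and 8.19 ± 0.084 with LPS, for the lincRNA and the control siRNA, and 8.21 ± 0.11 and 8.29 ± 0.019 without it. Its other probe was at 7.41 and 7.44 on the slide-1 arrays, against 7.99 on control-siRNA array 3, so the 2 probes of Atp5g2 differed in this pattern.

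Other genes of mitochondria and of glycolysis were counted for the LPS contrasts. With the control siRNA, 0 of 4 complex II genes, 0 of 9 other chain subunits and carriers, 0 of 33 further assembly factors, 0 of 77 mitochondrial ribosomal proteins and 0 of 20 glycolytic genes passed, where 5.14% of all features did (1.84% with the lincRNA siRNA). A count of 0 or 1 in a list of 4 to 20 genes lies near that background. Acod1 was the member of the list of TCA cycle genes that passed, 1 of 19, at 1.56 ± 0.19 (limma adjusted p = 0.00119) with the control siRNA and 1.69 ± 0.19 (adjusted p = 0.0012) with the lincRNA siRNA. Ppargc1b, a coactivator of mitochondrial biogenesis, was 1 of 13 and rose by 1.19 ± 0.19 with the control siRNA (adjusted p = 0.00646). With the lincRNA siRNA its change was 0.17 ± 0.19, and the difference of -1.02 ± 0.27 had an adjusted p of 0.891. Sod2, the mitochondrial superoxide dismutase, was 1 of 10 in its list and rose by 0.42 ± 0.098 (adjusted p = 0.0387), a call that held when control-siRNA array 3, lincRNA-siRNA array 1 or lincRNA-siRNA LPS array 3 was left out and was lost without any of the other 9 arrays, with adjusted p up to 0.152. The lowest of those 3 lists were Suclg2 at -0.73, Twnk at -0.47 and Slc25a4 at -0.35, with adjusted p of 0.0979, 0.0564 and 0.0833. Suclg2 passed without control-siRNA array 3 or control-siRNA LPS array 1, Twnk without control-siRNA array 3 or lincRNA-siRNA LPS array 1 or 3, and Slc25a4 without control-siRNA LPS array 1. With the lincRNA siRNA no gene of these lists other than Acod1 passed, and none did in the siRNA comparisons or the interaction. With slide blocked none of the named 3 passed, at adjusted p of 0.0691 for Acod1, 0.0818 for Ppargc1b and 0.561 for Sod2, while Acod1 kept a change of 1.58 and Ppargc1b of 1.33. One gene of these lists was gained by the block, Mrpl33 of the mitochondrial ribosome, at 1.04 (adjusted p = 0.0119), against 0.35 ± 0.24 (adjusted p = 0.385) over all arrays, and it was named after its values were seen.

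**Figure D5:**
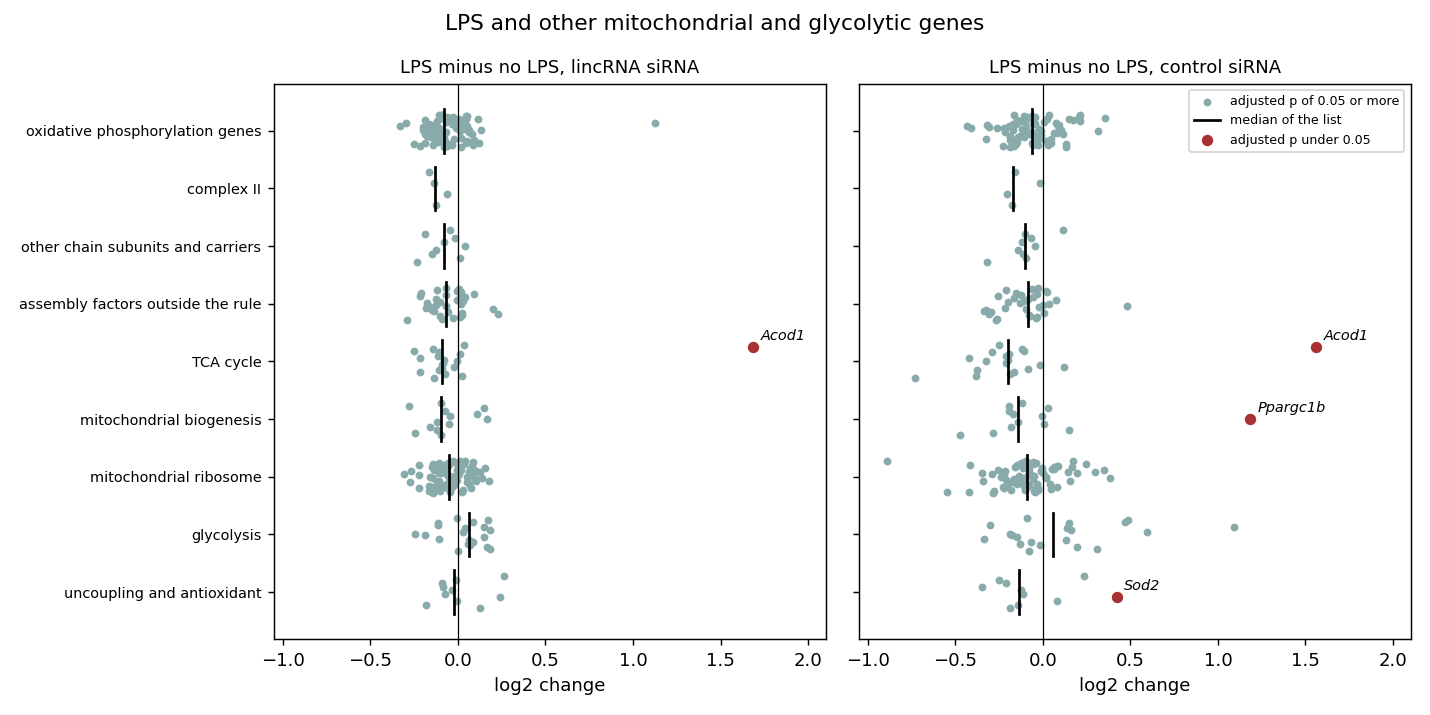
Log2 change with LPS of each gene (points) of the oxidative phosphorylation members and of 8 other lists, for the lincRNA siRNA (left) and the control siRNA (right). Red points passed the limma test and are named, and black bars mark list medians. Acod1, Ppargc1b and Sod2 stand out on the right and Acod1 on the left, while no oxidative phosphorylation gene is red.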

How the data were processed

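Each of the 12 single-colour arrays has deposited spot intensity values, written by Agilent Feature Extraction 10.7.1.1, per the file headers, after background subtraction within each array and probe positions on mm9. The flags for outliers, saturation and signal well above background are that software's, per the file headers. The authors' deposited value table was read as log2 because its columns followed the log2 signal of each array with a slope near 1. The sources used here do not state its normalization. Its median was 4.748 on each array, and it was tried as an alternative, with results close to those of quantile normalization.

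Outlier spots were left out, spots of a probe averaged as log2, and the array's 75th percentile subtracted. A probe was kept if well above background on all 3 arrays of a group, and the brightest kept probe stood for a gene (23913 features). limma 3.58.1 in R 4.3.3 fitted a mean per group to all 12 arrays, with 8 residual degrees of freedom and Benjamini-Hochberg adjustment over all features. Figures used Python with matplotlib 3.10.9. Genes named were the 3 highest and 3 lowest changes of each comparison, the brightest and dimmest member of each complex, restricted isoforms, and the highest and lowest of other lists. Of those lists, the ones with a passing gene are named. The members and lists were chosen with earlier results of these data known. Alternatives covered background correction, scaling, probe filters, probe choice, slide, replicate number and leaving out each array. The values of 1 member, which is in the counts and medians, are not reported here.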

Additional observations from a re-analysis of the deposited data

How the results depend on the processing

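No oxidative phosphorylation gene was called in 110 of 120 repeats of the 5 comparisons. In LPS with the control siRNA, 1 gene, Dmac2, passed with quantile normalization, scaling to the median, the authors' value table, probes well above background on all 12 arrays, the mean of the kept probes and an intensity trend. Leaving out each array gave 0 to 3 calls there and for the siRNA without LPS, and 0 in the other comparisons. Member medians over the arrays left out ran from -0.095 to -0.041 and from -0.098 to -0.035 for LPS with the control and the lincRNA siRNA, from 0.018 to 0.075 and from 0.028 to 0.080 for the siRNA with and without LPS, and from -0.022 to 0.042 for the interaction. Medians that moved by over the SD of array medians within groups (0.061) were, for LPS with the control siRNA, -0.33 scaled to the median (all features -0.21) and -0.14 with the slide as a block or slide 2 alone. For LPS with the lincRNA siRNA it was -0.17 scaled to the median (all features -0.10). For the siRNA with LPS it was -0.038 with quantile normalization (all features -0.0065) and with the authors' table (all features -0.0069). For the siRNA without LPS it was -0.054 with quantile normalization and -0.055 with the authors' table (all features 0.014 in both). It was -0.084 scaled to the median (all features -0.087) and -0.021 with the block or slide 2 alone (all features -0.021). For the interaction it was -0.063 with normexp (all features 0.021) and 0.19 scaled to the median (all features 0.13). With the block or slide 2 alone it was 0.098 (all features 0.060).

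Among named genes 19 of 1053 values changed sign. Of the 44 values in each setting, 7 did so with the slide as a block and 7 with slide 2 alone. For LPS with the control and the lincRNA siRNA, the block turned the sign of 29 and 32 of the 83 members. Of all 23913 features, 6194 and 7401 turned. For the siRNA with and without LPS it turned 28 and 25 members, and for the interaction 40. Of all features, 6526, 6582 and 8429 turned. Scaled to the median, the named values that changed sign were Atp5b (LPS, control siRNA, -0.050) and Dmac2 (siRNA without LPS, -0.017). With the slide as a block or slide 2 alone they were Atp5b (-0.043) and Atp5h (-0.17) for LPS with the control siRNA, Ndufa4 (0.013) for the siRNA with LPS, and Ndufa4l2 (0.023), Atp5h (0.096), Atp5o (0.18) and Ndufa10 (-0.0077) for the interaction. Over the arrays left out, Cox6b2 ran from -0.0044 (without control-siRNA LPS array 2) to 0.89 for the siRNA with LPS and from -0.91 to 0.19 (without lincRNA-siRNA array 3) for the siRNA without LPS. Ndufv2 ran from -0.13 (without lincRNA-siRNA array 1) to 0.26 for LPS with the lincRNA siRNA. The cause was not tested. Deviations of same-numbered arrays had correlations of -0.30 to 0.47 over 18 pairs, above 0.1 in 8 of them. These cannot settle whether same-numbered samples were prepared together, since array number goes with slide in part of the groups. The samples were treated as unpaired. The replicate block left the count at 0 members and the median at -0.061 for LPS with the control siRNA. With 3 arrays per group, changes under about 1.5-fold could not be resolved for every member.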
